A study of Mus musculus with 56 samples.

Results

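The 10 genes described here, Myh4, Mylpf, Car3, Acta1, Ckm, Tnnt3, Tnnc2, Actn3, Myh1 and Atp2a1, are genes of skeletal muscle, a tissue that lies around the spinal column but is not part of the spinal cord. The myosin, troponin, alpha-actinin and calcium pump genes among them are known for fast fibres. They are 10 of the 43629 genes counted in each library, and all were found by Ensembl ID. The genes were listed from the 14-week motor neuron libraries, with earlier results of these data also known. Values, calls and p-values below are therefore a description for every age and fraction. Each library is messenger RNA of mouse cervical spinal cord (the methods say spinal cord). All mice carried the Chat bacTRAP transgene, which places an EGFP-tagged ribosomal protein in cholinergic cells, and were congenic on C57BL/6J. Chat bacTRAP mice carried no other transgene, while the double transgenic mice also carried hTDP-43 A315T, mutant human TDP-43, or hTDP-43 WT, the wild-type human protein, both under the prion promoter, which is not restricted to motor neurons. MN-TRAP libraries hold RNA pulled down with the tagged ribosomes, and spinal cord libraries hold RNA of the lysate before pull-down. At 9 weeks there were 4 Chat bacTRAP, 3 hTDP-43 WT and 5 hTDP-43 A315T MN-TRAP libraries, and 6, 6 and 5 spinal cord libraries. At 14 weeks there were 4, 5 and 4 MN-TRAP libraries and 5, 5 and 4 spinal cord libraries, in the same order. Which MN-TRAP and spinal cord libraries share an animal is not given by the labels, so p-values measure the spread between these libraries.

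Library totals ran from 472447 to 255802240 counts in MN-TRAP and from 17493897 to 86654485 counts in spinal cord. Some control MN-TRAP libraries stood apart from their labels. Lamr1-ps1, a pseudogene, lay between 0.480 and 2.93 CPM (counts scaled to a common library total) in the 9 hTDP-43 A315T MN-TRAP libraries and at 0 in 13 control MN-TRAP libraries, but at 1.11 to 1.69 CPM in 3 others: hTDP-43 WT 14 weeks replicate 5, hTDP-43 WT 9 weeks replicate 3 and Chat bacTRAP 9 weeks replicate 4. In spinal cord it lay between 1.01 and 1.54 CPM in the 9 hTDP-43 A315T libraries and at or below 0.0398 CPM in the 22 controls. These 3 libraries were compared over genes with the hTDP-43 A315T MN-TRAP libraries only, so a nearer control library was not looked for. Among those, hTDP-43 WT 14 weeks MN-TRAP replicate 5 was nearest to hTDP-43 A315T 14 weeks replicate 3 (chi-square per gene 1.31, next nearest 18.1). Chat bacTRAP 9 weeks MN-TRAP replicate 4 was nearest to hTDP-43 A315T 9 weeks replicate 5 (1.90, next nearest 24.0). The third, hTDP-43 WT 9 weeks replicate 3, had no such near match (15.47, next nearest 15.50). The 10 genes summed to 5.95 and 5.62 CPM in the first pair and to 38.6 and 37.5 CPM in the second. The Y-linked gene Ddx3y stood at 51.0 CPM in Chat bacTRAP 14 weeks MN-TRAP replicate 4 and reached no more than 0.124 CPM in the other 55 libraries, although the study describes females. The MN-TRAP comparisons that include the 3 libraries with Lamr1-ps1 reads are also given without them, and the 14-week MN-TRAP comparison with Chat bacTRAP also without the library with Ddx3y reads. The shares within the 10 genes, the likeness to other genes and the covariate counts were not recomputed without these libraries.

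A muscle fibre contracts when calcium, released from the sarcoplasmic reticulum, binds to troponin on the thin actin filament and lets myosin heads of the thick filament pull on it. Fast fibres use their own isoforms of myosin, troponin, alpha-actinin and the calcium pump, and rely on creatine phosphate to renew ATP. Slow fibres use other isoforms and more mitochondria. None of these contractile isoforms is known as a marker of motor neurons, whose axons leave the cord to reach the muscle.

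All 56 libraries held counts of at least some of the 10 genes, and their amount varied widely between libraries of the same group. In MN-TRAP the summed level ran from 3.95 CPM (95% Wilson interval 3.37 to 4.63) in hTDP-43 A315T 9 weeks replicate 2 to 1023 CPM (1011 to 1035) in Chat bacTRAP 14 weeks replicate 1. In spinal cord it ran from 10.5 CPM (9.63 to 11.5) in hTDP-43 A315T 9 weeks replicate 2 to 1292 CPM (1281 to 1303) in Chat bacTRAP 14 weeks replicate 2. The intervals cover counting error only. The highest library thus held 259 times the lowest in MN-TRAP and 123 times the lowest in spinal cord. Sums of at least 100 CPM were found in 7 of 25 MN-TRAP and 17 of 31 spinal cord libraries. In bulk libraries, more muscle tissue and more RNA per muscle fibre cannot be told apart.

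Among 9-week MN-TRAP libraries the summed normalized counts were 262, 11161, 313 and 1084 in Chat bacTRAP, 1934, 4861 and 335 in hTDP-43 WT, while the hTDP-43 A315T libraries held 1300, 116, 819, 735 and 1064. A single Chat bacTRAP library, replicate 2, stood above all others of that age, and the hTDP-43 A315T libraries overlapped both controls. The 1934 of hTDP-43 WT replicate 1 rests on 30 counts in a library of 472447 counts, in which 6 of the genes were at 0 and 3 counts equal 6.35 CPM. At 14 weeks the MN-TRAP values were 29528, 3268, 2004 and 576 in Chat bacTRAP, 4854, 868, 8058, 4610 and 166 in hTDP-43 WT, while the hTDP-43 A315T libraries held 490, 431, 158 and 136. All 4 hTDP-43 A315T libraries lay below the 4 Chat bacTRAP libraries, and hTDP-43 WT replicate 5, a library with Lamr1-ps1 reads, lay within the hTDP-43 A315T range. The 576 of Chat bacTRAP replicate 4, the library with Ddx3y reads, rests on 99 counts in a library of 4801258. The 3268 of replicate 2 rests on 269 counts in 2414523. In hTDP-43 A315T replicates 3 and 4 the sums rest on 69 and 101 counts.

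The spinal cord libraries at 9 weeks ranged from 405 to 23933 in Chat bacTRAP (median 3645), from 1366 to 25688.5 in hTDP-43 WT (median 4101) and from 263 to 8320 in hTDP-43 A315T (median 3000). At 14 weeks they stood at 1654, 36841, 515, 2532 and 2246 in Chat bacTRAP, at 17609, 4889, 1077, 23508 and 9129 in hTDP-43 WT and at 2655, 1875, 485 and 379 in hTDP-43 A315T. The spinal cord groups of the 3 genotypes overlapped at both ages. When the 12 groups were ordered by their median summed CPM, from 10.5 in 14-week hTDP-43 A315T MN-TRAP to 356 in 14-week hTDP-43 WT spinal cord, every pair of neighbours overlapped.

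**Figure D1:**
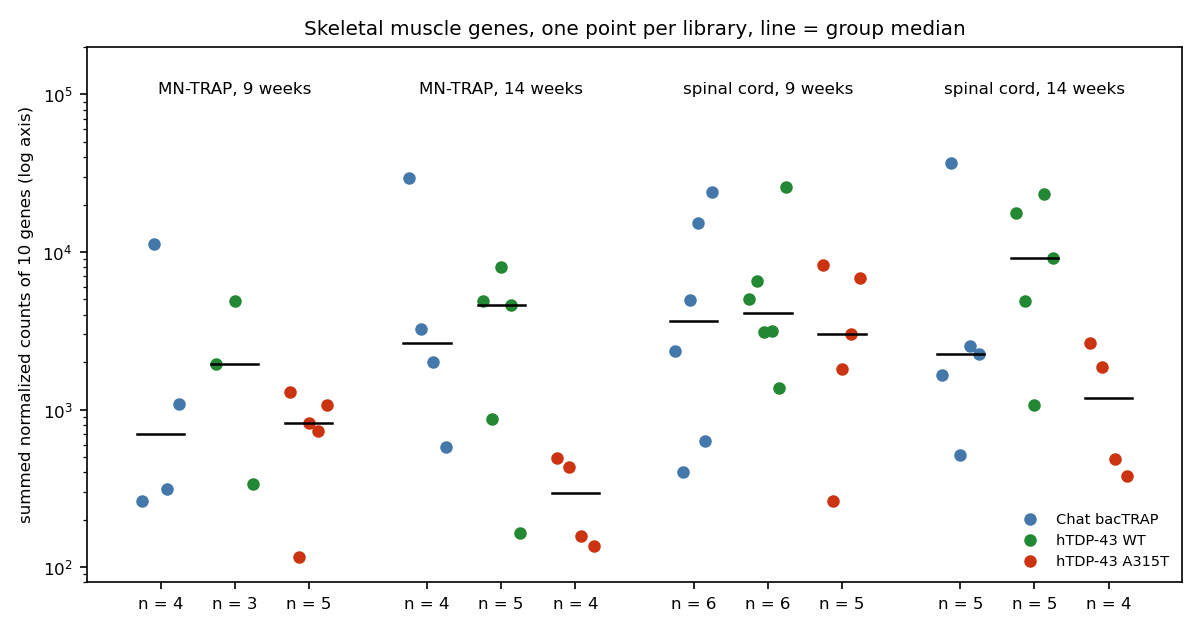
Summed normalized counts of the 10 muscle genes in each library (y axis, log scale), by fraction, age and genotype; points are libraries and lines are group medians. The highest points are Chat bacTRAP 14 weeks spinal cord replicate 2 at 36841 and Chat bacTRAP 14 weeks MN-TRAP replicate 1 at 29528.

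The myosin genes among the 10 are Myh4 and Myh1, the heavy chains of fast IIB and IIX fibres, and Mylpf, the fast regulatory light chain. Myh4 (GRCm38, chr11:67238029-67260446) and Myh1 (chr11:67200052-67224575) are neighbours on the forward strand. Their transcripts are alike enough that some reads could align to both, and such reads may be missing from the counts. Promoter windows of 300 bases (250 before and 50 after the start) were in the RefSeq set (GRCm38.p6) for 7 of the 10 genes. The windows of Myh4, Myh1 and Acta1 are shown because they hold the MEF2 and CArG matches found among the members. Capitals mark the E-box CAGCTG, the MEF2 site, the CArG box and TATAAA, searched on both strands.
Myh4 (chr11:67237562-67237861, forward strand): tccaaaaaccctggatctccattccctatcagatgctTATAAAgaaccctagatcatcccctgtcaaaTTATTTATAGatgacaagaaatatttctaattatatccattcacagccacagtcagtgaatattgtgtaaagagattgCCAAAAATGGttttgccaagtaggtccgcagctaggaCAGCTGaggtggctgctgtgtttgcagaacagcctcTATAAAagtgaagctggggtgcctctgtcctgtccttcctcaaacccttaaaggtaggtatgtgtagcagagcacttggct
Myh1 (chr11:67199852-67200151, forward strand): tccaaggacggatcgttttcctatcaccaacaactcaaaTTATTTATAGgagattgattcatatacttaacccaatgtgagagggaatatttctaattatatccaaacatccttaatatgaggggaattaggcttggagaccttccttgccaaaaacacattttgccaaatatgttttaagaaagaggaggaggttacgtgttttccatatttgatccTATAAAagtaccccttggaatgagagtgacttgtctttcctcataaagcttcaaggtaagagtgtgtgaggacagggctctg
Acta1 (chr8:123894726-123895025, reverse strand): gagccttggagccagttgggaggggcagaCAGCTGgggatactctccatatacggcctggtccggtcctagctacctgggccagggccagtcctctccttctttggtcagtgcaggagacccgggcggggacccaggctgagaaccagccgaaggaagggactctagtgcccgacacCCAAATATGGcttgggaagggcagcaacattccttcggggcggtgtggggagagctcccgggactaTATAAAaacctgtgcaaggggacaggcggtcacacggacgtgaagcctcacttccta
MEF2 and serum response factor, which binds CArG boxes, are factors of muscle gene transcription. Distances are counted from the RefSeq start of each window. For Myh4 the whole window lies before the gene position given above, which is from GENCODE. The MEF2 match begins 182 bases before the Myh4 start and 211 bases before the Myh1 start. It overlaps a TATAAA match on the opposite strand. A run of 20 bases, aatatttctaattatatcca, is also shared by both myosin windows. A CArG match begins 104 bases before the Myh4 start and 73 bases before the Acta1 start. MEF2 matches were in 2 of the 7 windows and in 3.26% of all 27025 windows, CArG matches in 2 of 7 and in 1.57%, CAGCTG in 5 of 7 and in 16.1%, TATAAA in 3 of 7 and in 14.2%, and the wider E-box CANNTG, which includes CAGCTG, in 6 of 7 and in 72.1%. A match is a description of the letters and not evidence of binding.

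Myh4 was counted in all but 2 of the 56 libraries, from 0 to 56.8 CPM in MN-TRAP and from 0.110 to 75.0 CPM in spinal cord. In 14-week MN-TRAP it stood at 1640, 97.2, 94.6 and 52.4 normalized counts in Chat bacTRAP, at 274, 64.9, 699, 326 and 1.53 in hTDP-43 WT and at 23.6, 11.1, 2.29 and 0 in hTDP-43 A315T. The hTDP-43 A315T libraries lay below every Chat bacTRAP library, and hTDP-43 WT replicate 5 lay among them. In 14-week spinal cord, Myh4 stood at 65.9, 1135, 8.15, 50.3 and 72.0 in Chat bacTRAP, at 530, 300, 39.7, 1256 and 611 in hTDP-43 WT and at 177, 29.2, 12.5 and 8.93 in hTDP-43 A315T, and the groups overlapped. Myh1 was lower, with a median of 0.692 CPM in MN-TRAP and 1.30 CPM in spinal cord, and 0 counts in several libraries. Mylpf had medians of 3.26 and 10.01 CPM. It followed the mean of the other 9 genes most closely of all members in spinal cord (Pearson's r of log2 CPM 0.994 over 31 libraries, a description, as these libraries share the same tissue source).

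Acta1, skeletal muscle alpha-actin, the main protein of the thin filament, was the highest member. Per kilobase of exon its median was 24.2 CPM in spinal cord, ahead of Tnnt3 at 14.004 and Mylpf at 9.43. Car3 at 3.48, Atp2a1 at 3.35, Actn3 at 2.46 and Ckm at 2.06 followed, and Myh4 at 0.649, Tnnc2 at 0.250 and Myh1 at 0.204 were lowest. In 14-week MN-TRAP, Acta1 stood at 8331, 1871, 464 and 75.7 normalized counts in Chat bacTRAP and at 152, 151, 34.4 and 26.9 in hTDP-43 A315T, so that Chat bacTRAP replicate 4 overlapped the hTDP-43 A315T libraries. Tnnt3, the fast troponin T that ties troponin to tropomyosin, was the second highest and reached 279 CPM in MN-TRAP and 254 CPM in spinal cord. Tnnc2, the calcium-binding subunit of fast troponin, was nearly absent: its median was 0 CPM in MN-TRAP and 0.200 CPM in spinal cord, and its highest value was 4.04 CPM. Of its exon bases, 74.0% overlap Ube2c on the opposite strand. The methods give default settings for the counting, which use no strand and leave out reads that fall in 2 genes, so reads from the shared bases may be missing and its level is uncertain.

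Atp2a1, the calcium pump of the fast fibre's sarcoplasmic reticulum, had medians of 2.16 CPM in MN-TRAP and 11.6 CPM in spinal cord and reached 155 CPM. Ckm, muscle creatine kinase, had medians of 1.68 and 6.01 CPM. Actn3, the alpha-actinin of fast Z-discs, had medians of 2.13 and 7.13 CPM. Actn3 ran from 1.79 to 59.7 CPM in spinal cord, and took 35.8% of the members' counts in hTDP-43 WT 14 weeks MN-TRAP replicate 5, where Myh4 stood at 1.53 and Tnnt3 at 2.73 normalized counts. Its share was also high in hTDP-43 A315T MN-TRAP 14 weeks replicate 4 (36.6% of 101 counts) and 9 weeks replicate 2 (32.9% of 152 counts). The median share was 7.27% over the 21 MN-TRAP libraries with at least 100 such counts. Atp2a1 shares 21.9% of its exon bases with Rabep2 on the opposite strand, and Ckm 15.5% with the antisense gene A930016O22Rik, so the same limit holds for those bases.

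Car3, carbonic anhydrase 3, is abundant in slow fibres and also in fat cells. It followed the other members least closely among those well counted, with r of 0.783 over MN-TRAP and 0.802 over spinal cord libraries. In spinal cord Car3 ran from 2.18 to 95.8 CPM. In 14-week MN-TRAP it stood at 2692, 243, 206 and 215 normalized counts in Chat bacTRAP and at 90.02, 48.3, 36.7 and 1.35 in hTDP-43 A315T. These 2 groups did not overlap, beside 2.05% of all genes with every hTDP-43 A315T library lower. The hTDP-43 WT libraries ran from 36.3 to 931 and overlapped the hTDP-43 A315T libraries. Nothing is read from this, as the genes were listed from these libraries.

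**Figure D2:**
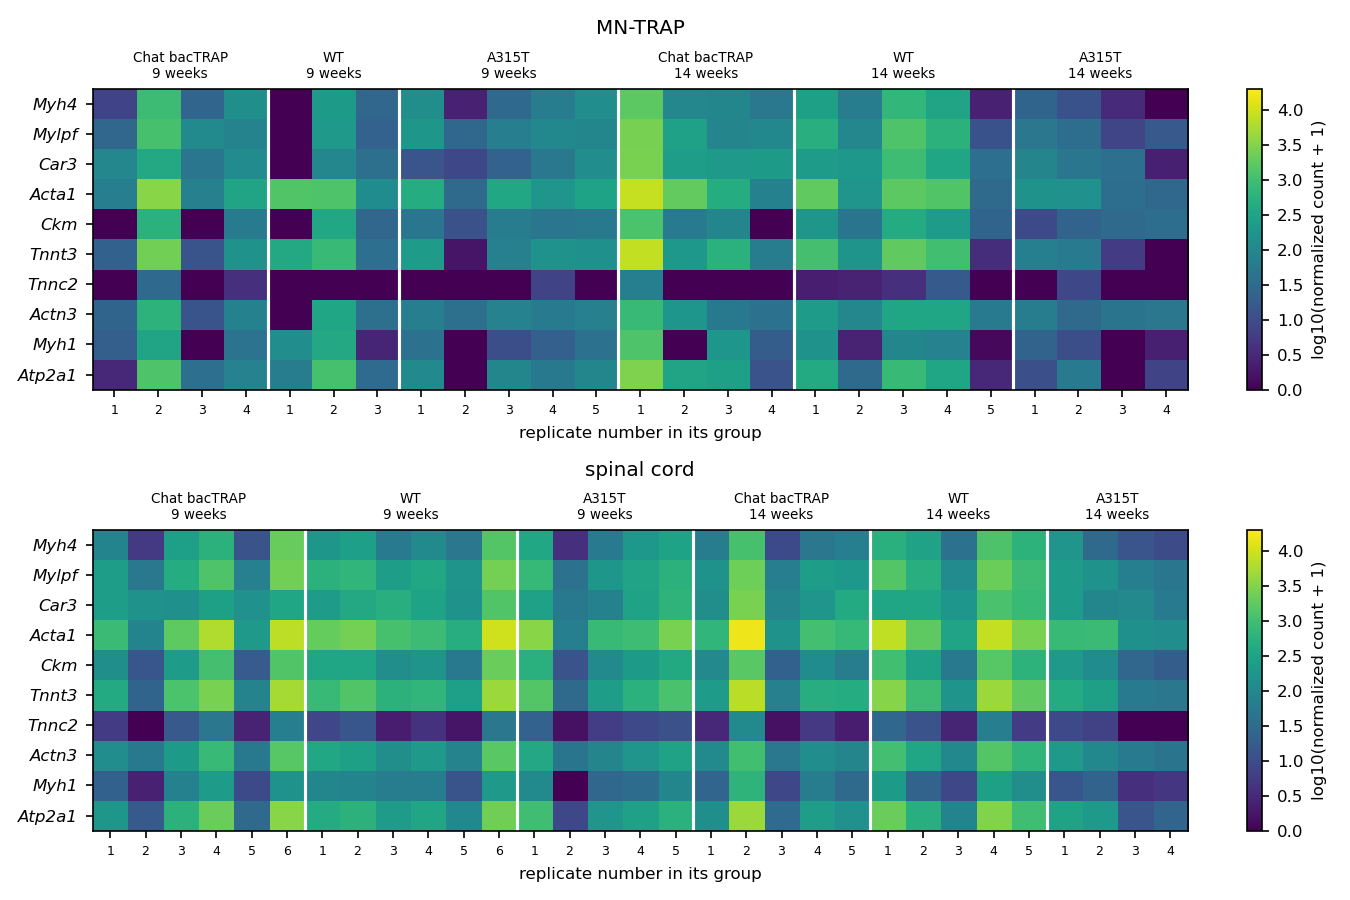
Normalized counts of each gene (rows) in each library (columns), as log10(count + 1), grouped by age and genotype. Columns darken and brighten as a whole, and Tnnc2 is dark in nearly every library, with a median of 0 CPM in MN-TRAP.

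The proportions of the 10 genes varied less for some members than for others. In the 25 spinal cord libraries with at least 1000 such counts, Acta1 made up 28.4% to 45.9% of them, Tnnt3 14.2% to 24.4%, Atp2a1 6.67% to 14.1%, Mylpf 6.05% to 12.2%, Ckm 2.80% to 8.09%, Actn3 2.74% to 9.24%, Myh4 1.56% to 8.33% and Myh1 0.461% to 2.44%. Car3, with 1.42% to 18.9%, and the barely counted Tnnc2, with 0.0357% to 0.323%, varied most, by 13.3 and 9.06 times between the lowest and the highest share. In the 11 MN-TRAP libraries with at least 1000 counts the ranges were wider, with Acta1 at 17.6% to 45.9% and Tnnt3 at 1.64% to 27.5%, the lowest Acta1 and Tnnt3 shares being those of hTDP-43 WT 14 weeks replicate 5.

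**Figure D3:**
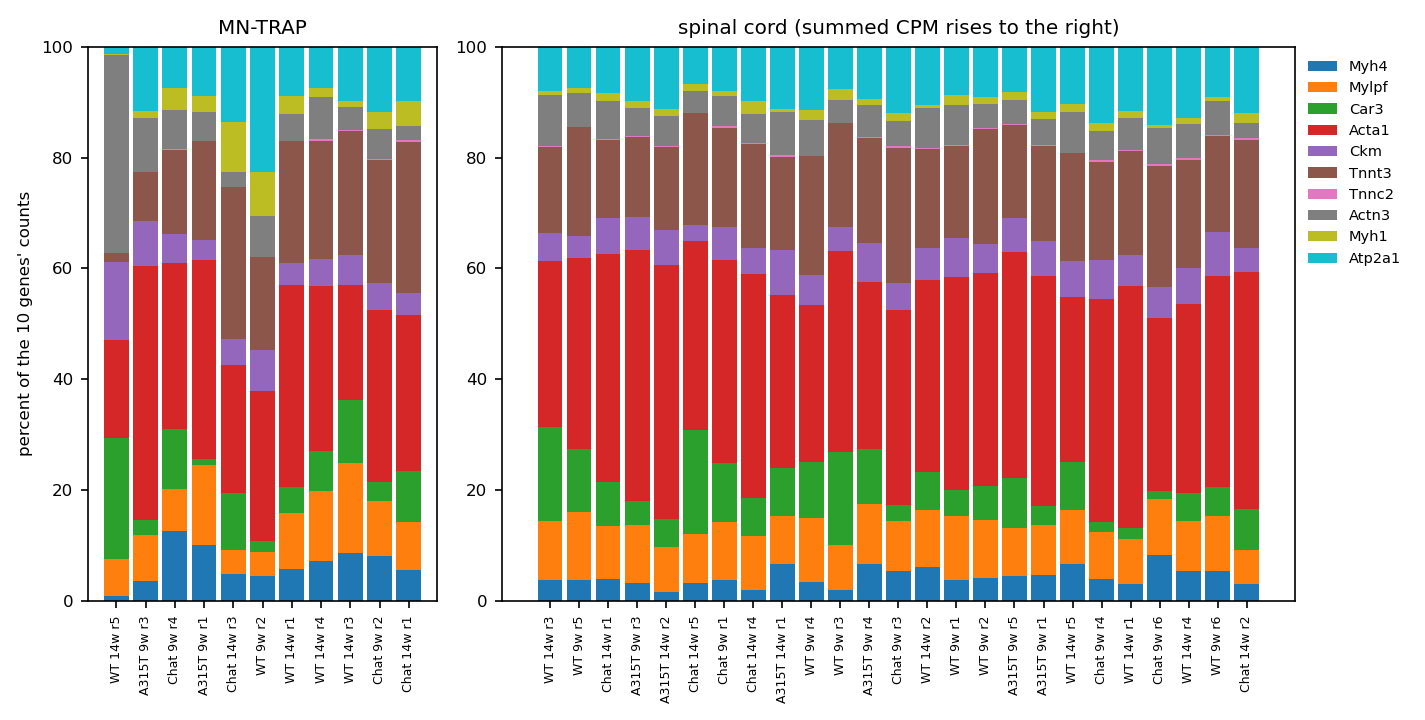
Share of each gene in the summed counts of the 10 genes (y axis, percent), for the 11 MN-TRAP and 25 spinal cord libraries with at least 1000 such counts, ordered by summed CPM. Red (Acta1) fills 28.4% to 45.9% of each spinal cord bar, while green (Car3) varies from 1.42% to 18.9%.

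Several other skeletal muscle genes rose and fell with the 10. Over the spinal cord libraries the genes closest to the members' mean log2 CPM were Tnni2, fast troponin I (r = 0.990), Myl1, the fast essential light chain (0.987), Myoz1, a Z-disc protein of fast fibres (0.987), and Tcap, titin-cap (0.967), followed by Xirp2, Dhrs7c, Mylk2, Des, Ampd1 and Eno3. Over the MN-TRAP libraries they were Tnni2 (0.966), Mb, myoglobin (0.948), Trdn, triadin (0.946), and Tcap (0.924), followed by Myl1, Casq1, Tpm2, Myh2, Klhl31 and Xirp2. Of 15735 genes compared in spinal cord, 35 had r above 0.9, and of 14859 in MN-TRAP, 4 did. These are descriptions over 31 and 25 libraries that share tissue source and differ in depth. Among the most abundant genes of the other skeletal muscle list, Pvalb, Pygm, Fbxo32 and Ldb3, which neural tissue also expresses, varied by only 3.17, 1.98, 1.86 and 2.41 times between the lowest and highest spinal cord library, against 236 times for Tnni2.

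Slow fibre genes set the 2 highest libraries apart. Myoz2, a slow fibre Z-disc protein chosen here after its values were seen, stood at 46.4 CPM in Chat bacTRAP 14 weeks spinal cord replicate 2 and at 43.1 CPM in Chat bacTRAP 14 weeks MN-TRAP replicate 1. It stood at 14.2 CPM in hTDP-43 WT 14 weeks spinal cord replicate 1 and at no more than 7.48 CPM in the remaining 53 libraries. Csrp3, a muscle LIM protein, was at 20.3 and 23.7 CPM in the same 2 libraries, and Myh2, the heavy chain of IIA fibres, at 35.6 and 54.9 CPM. In contrast, Myh4 was higher in Chat bacTRAP 9 weeks spinal cord replicate 6 (75.0 CPM), where Myoz2 was at 3.07 CPM. The sum of the 10 slow muscle genes was 201.7 and 200.3 CPM in those 2 libraries and 8.47 to 91.8 CPM in the others.

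**Figure D4:**
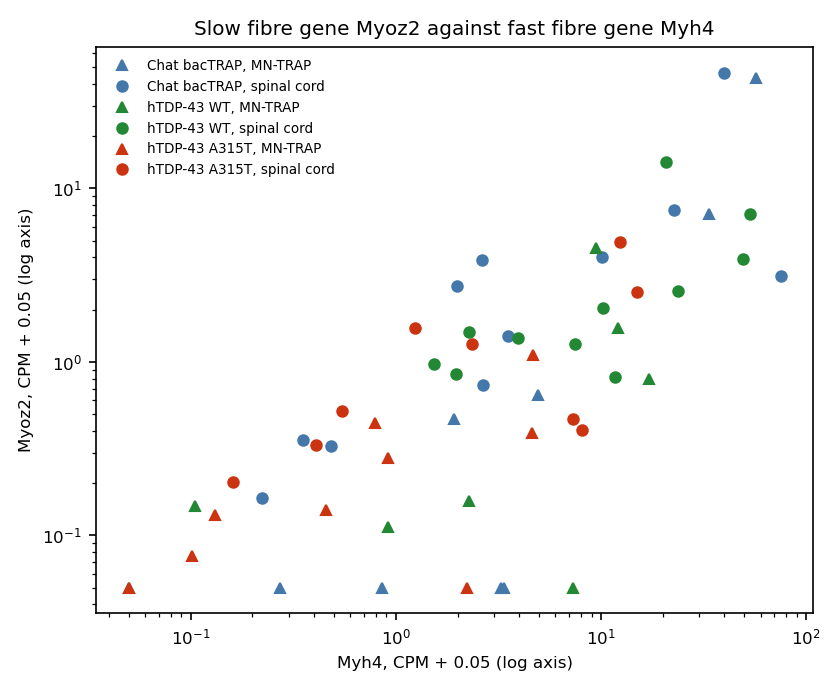
Myoz2 against Myh4 in each of the 56 libraries (both axes CPM + 0.05, log scale). The 2 points at the top, at 46.4 and 43.1 CPM of Myoz2, are Chat bacTRAP 14 weeks spinal cord replicate 2 and MN-TRAP replicate 1; other libraries with as much Myh4 have far less Myoz2.

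Genes of myogenic regulators and of the muscle endplate were low in spinal cord. There, Myf6, the regulator kept in mature fibres, had a median of 0.104 CPM and reached 1.68 CPM in Chat bacTRAP 14 weeks replicate 2, and Myod1 reached 0.619 CPM. The endplate receptor subunits Chrna1 and Chrne had medians of 0.724 and 0.258 CPM, while in MN-TRAP Chrna1 reached 9.11 CPM. Of the 8 fat cell genes, Cfd, adipsin, was at 4.90 and 7.72 CPM and Fabp4 at 8.91 and 8.48 CPM in the 2 libraries named above. Their medians were 0.415 and 1.91 CPM in spinal cord and 0 and 1.24 CPM in MN-TRAP. Other libraries reached more, with Cfd at 5.73 CPM in spinal cord and Fabp4 at 11.8 CPM in spinal cord and 12.3 CPM in MN-TRAP. The remaining fat cell genes are given by their highest values only. In MN-TRAP these were 1.71 CPM for Adipoq, 0.913 for Plin1, 0.371 for Retn, 0.833 for Cidec, 0.152 for Lep and 4.58 for Ucp1. In spinal cord they were 1.69, 0.337, 0.831, 2.00, 0.211 and 0.972 CPM, in the same order. Mitochondrially encoded RNA also differed: it made up 4.86% of counts in Chat bacTRAP 14 weeks MN-TRAP replicate 1 and 0.0662% to 0.119% in 14-week hTDP-43 A315T MN-TRAP. It was 4.01% in hTDP-43 WT 14 weeks MN-TRAP replicate 2, whose 10 genes summed to only 29.7 CPM. Oligodendrocyte genes summed to 18948 and 21420 CPM in these 2 control MN-TRAP libraries and to 1828 to 2227 CPM in 14-week hTDP-43 A315T MN-TRAP. The part of cord cell carry-over and of mitochondrial RNA in the differences below was not tested.

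Against Chat bacTRAP at 14 weeks in MN-TRAP, the comparison that led to the list, the fitted log2 change was below 0 for all 10 genes, from -2.51 (SE 1.13) for Actn3 to -5.88 (SE 1.85) for Tnnt3, with a median of -4.74 against 0.09 over all genes tested. By the rule used throughout (adjusted p below 0.05 and at least 2-fold), 7 of the 10 were called lower, where 5.17% of all 18838 genes tested were called lower and 10.4% in either direction; as the genes were listed from these libraries, nothing is read from that count. Myh4, Mylpf and Car3 did not overlap between the groups, beside 2.05% of all genes with every hTDP-43 A315T library lower; 12.1% of all genes were lower at an unadjusted p below 0.05. With edgeR fitted on MN-TRAP libraries alone, 0 genes were called and 2042 had an unadjusted p below 0.05; DESeq2, run on all libraries, called 2319. Without Chat bacTRAP replicate 1 the median was -2.45, with 0 of 10 called. Without replicate 4, which holds Y-linked reads, 8 were called, and without hTDP-43 A315T replicate 4 only 1 was. Of the other 55 skeletal muscle genes 31 were called lower, among them Neb, nebulin (-5.88), Ttn, titin (-4.49), and Casq1, calsequestrin (-3.52), and of the 10 slow muscle genes 4 were, Myl3, Tnni1, Myoz2 and Csrp3. The mitochondrially encoded list (7 of 7 lower) and the oligodendrocyte list (8 of 9 lower) moved in the same comparison.

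Against hTDP-43 WT at 14 weeks in MN-TRAP, which shares the hTDP-43 A315T libraries with the comparison above, the log2 changes ran from -0.96 (SE 1.93) for Tnnc2 to -4.59 (SE 1.80) for Myh4, with a median of -3.19 against -0.09 over all genes tested. None of the 10 was called, beside 4.67% of all genes called lower and 5.36% in either direction, and 6 were called with DESeq2. At an unadjusted p below 0.05, 17.1% of all genes were lower, and none of the 10 was free of overlap, beside 1.08% of all genes. Without the 3 control libraries with Lamr1-ps1 reads 3 were called (Mylpf, Car3 and Tnnt3), and without replicate 3, the highest in the 10 genes, none was and the median was -2.86. As the 10 genes were listed from libraries of this age and fraction, nothing is read from how many of them were called here. Of the other 55 skeletal muscle genes 5 were called lower: Ampd1, Cox6a2, Cox8b, Trdn and Txlnb.

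At 9 weeks the hTDP-43 A315T mice are described as pre-symptomatic. Calls at this age are a description too, as earlier results of these data were known when the genes were listed. In MN-TRAP against Chat bacTRAP the log2 changes ran from -1.62 (SE 1.01) for Actn3 to -3.20 (SE 1.85) for Tnnc2, with a median of -2.09. None of the 10 was called by edgeR or DESeq2, beside 0.541% of all genes called and 0.536% called lower. Only Car3 (-2.13, SE 0.97, edgeR adjusted p = 0.365) had an unadjusted p below 0.05, as did 8.69% of all genes in the lower direction. None was free of overlap, beside 0.515% of all genes. The median rested on Chat bacTRAP replicate 2: without it the median was 0.36, and Acta1 moved from -1.91 to 0.53 (SE 1.43) and Mylpf from -1.87 to 0.51 (SE 1.35). The count of all genes called fell from 102 to 0 without that library. Without the 3 control libraries with Lamr1-ps1 reads the median was -2.30, and 0 of 10 were called by edgeR, with 1 at an unadjusted p below 0.05. Against hTDP-43 WT the median was -1.47, 0 of 10 were called by edgeR or DESeq2 (2.14% of all genes called, 2.04% lower), and none had an unadjusted p below 0.05 with edgeR, while 1 did with DESeq2, beside 8.73% of all genes lower at that level by edgeR. None was free of overlap, beside 1.77% of all genes. Without hTDP-43 WT replicate 2 the median was 1.05, and the count of all genes called fell from 403 to 7. Without the 3 control libraries with Lamr1-ps1 reads the median was -2.10, with 0 of 10 called by edgeR and 1 at an unadjusted p below 0.05. That fit kept only replicates 1 and 2 of hTDP-43 WT. As replicate 1 has 472447 counts, the fit rests on little more than 1 control library.

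Between genotypes in spinal cord, none of the 10 genes was called. The spinal cord libraries are no separate support for the MN-TRAP differences: they were made from part of the lysates used for pull-down, their values were known when the genes were listed, and both fractions shared 1 fit. Counts at an unadjusted p are given here as a description. At 14 weeks against Chat bacTRAP the log2 changes ran from -1.38 (SE 1.00) for Actn3 to -3.74 (SE 1.54) for Myh1, with a median of -2.60 against -0.01 over all genes tested. None was called by edgeR or DESeq2, beside 0.0212% of all genes; 3 had an unadjusted p below 0.05 with edgeR (Acta1, Car3 and Myh1), where 2.97% of all genes were lower at that level, and 6 with DESeq2. Without Chat bacTRAP replicate 2 the median was -0.18 and the signs were mixed, with Car3 at -0.72 (SE 0.85), Myh4 at 0.27 (SE 1.43) and Ckm at 0.32 (SE 1.27). None of the 10 was free of overlap between the groups, beside 1.74% of all genes in which every hTDP-43 A315T library lay below every Chat bacTRAP library.

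Against hTDP-43 WT at 14 weeks in spinal cord the log2 changes ran from -2.24 (SE 0.95) for Car3 to -3.64 (SE 1.53) for Myh1, with a median of -3.04 against 0.01 over all genes tested. None was called by edgeR (adjusted p = 1 for each) or DESeq2, beside 0.0265% of all genes. At an unadjusted p below 0.05, 9 of 10 were lower, all but Tnnc2, where 1.37% of all genes tested were. The 10 genes move together from library to library, so these are not 9 separate observations. The median of the 10 genes stayed between -2.61 and -3.59 when each library was left out in turn, and 3 of 10 (Actn3, Myh1 and Mylpf) had an unadjusted p below 0.05 without hTDP-43 WT replicate 4. No member was free of overlap, beside 2.17% of all genes.

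In spinal cord at 9 weeks the median log2 change was -1.07 with Chat bacTRAP as the control and -0.91 with hTDP-43 WT. None of the 10 was called or had an unadjusted p below 0.05 with edgeR or DESeq2, beside 0.0372% and 0.0212% of all genes called, 1.31% and 3.08% lower at an unadjusted p below 0.05, and 0.956% and 1.96% with no overlap, which held for none of the 10. The medians were -0.26 without Chat bacTRAP replicate 6 and 0.04 without hTDP-43 WT replicate 6. The comparisons at one age and fraction share the hTDP-43 A315T libraries, and no test of the difference between ages or between fractions was run.

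**Figure D5:**
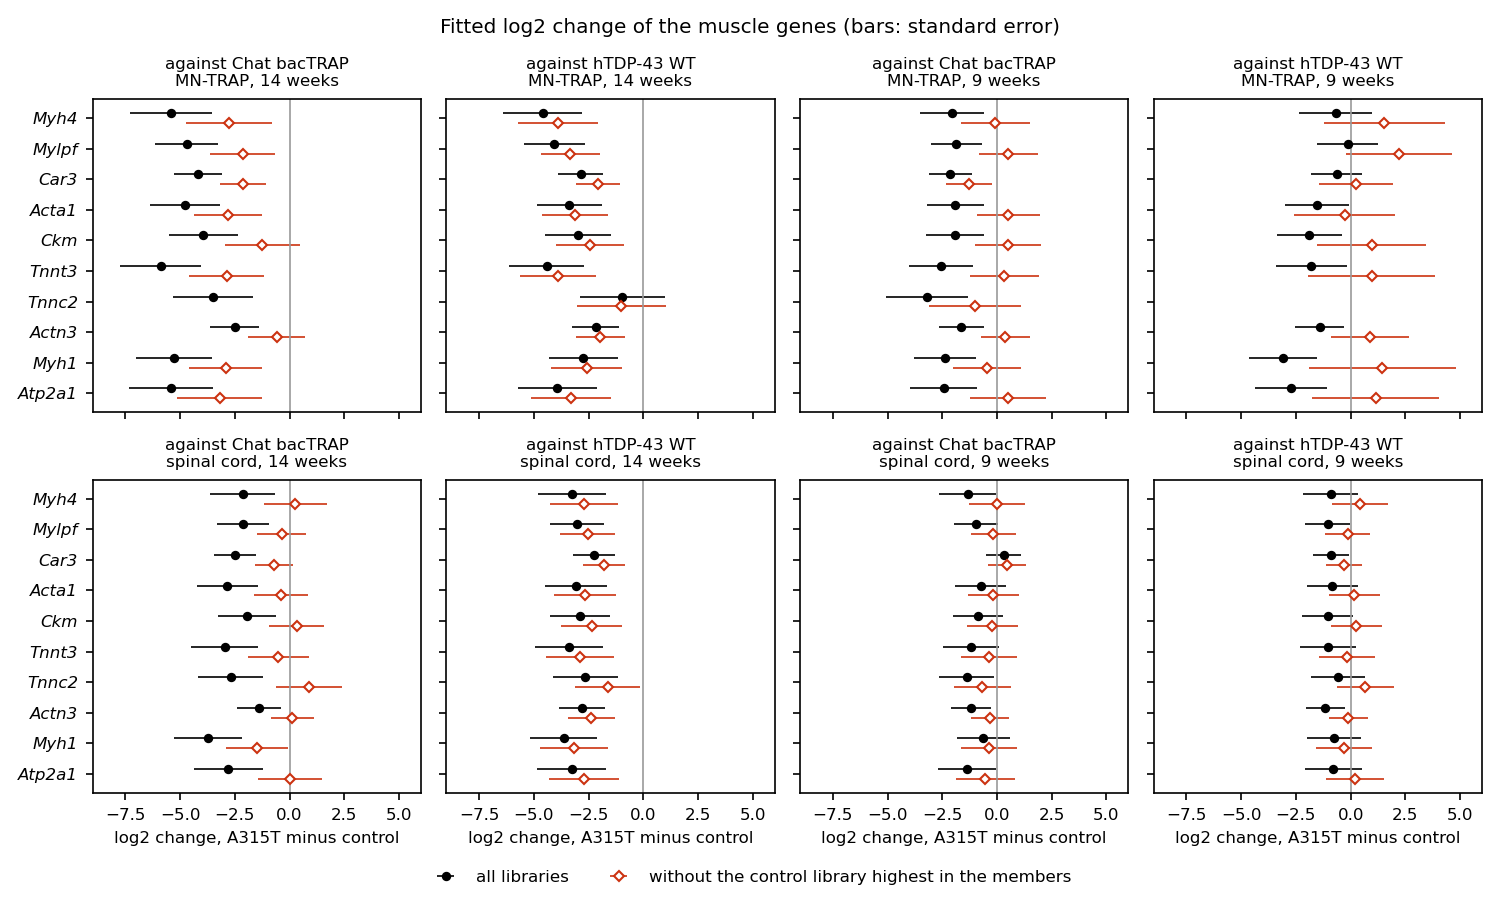
Fitted log2 change of each gene, hTDP-43 A315T minus control, with SE bars, in the 8 genotype comparisons, with all libraries (black) and without the control library highest in the 10 genes (red diamonds); Tnnc2 is left out where its SE passed 3. In 14-week spinal cord against Chat bacTRAP the median moved from -2.60 to -0.18, and against hTDP-43 WT from -3.04 to -2.61.

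Pull-down of motor neuron ribosomes was compared with the whole cord at 9 weeks. Calls here are a description, as earlier results of these data were known when the genes were listed. The study kept part of each lysate as input. The labels do not give those pairs, so the fit treated the libraries as unpaired. The median log2 change, MN-TRAP minus spinal cord, was -2.34 in hTDP-43 A315T, -1.04 in Chat bacTRAP and -1.58 in hTDP-43 WT, against -0.05, -0.07 and -0.17 over all genes tested. In hTDP-43 A315T only Car3 was called (-2.57, SE 0.94, adjusted p = 0.020), where 33.4% of all genes were called and 20.8% were called lower (29.8% at an unadjusted p below 0.05), while DESeq2 called Car3 and Acta1. Car3 stood at 12.6, 7.61, 21.6, 52.0 and 126 normalized counts in MN-TRAP and at 284, 54.4, 77.9, 297 and 622 in spinal cord, so the groups overlapped, as they did for all 10 genes, beside 32.3% of all genes with no overlap. Car3 was no longer called without MN-TRAP replicate 1 or 2 or spinal cord replicate 5 (adjusted p of 0.0536, 0.0555 and 0.0792). In Chat bacTRAP none was called by edgeR or DESeq2 and none had an unadjusted p below 0.05, beside 22.5% of all genes called, 13.4% called lower, 23.8% lower at an unadjusted p below 0.05 and 20.4% with no overlap. Of the 10 genes, 1 was called without Chat bacTRAP MN-TRAP replicate 2. In hTDP-43 WT none was called by edgeR, 1 had an unadjusted p below 0.05 and DESeq2 called 2, beside 23.3% of all genes called, 15% called lower and 25.4% lower at an unadjusted p below 0.05. Car3 and Tnnc2 did not overlap there, beside 24.5% of all genes. Without the 3 control libraries with Lamr1-ps1 reads the medians were -0.69 in Chat bacTRAP and -0.93 in hTDP-43 WT, and in both 0 of the 10 genes were called by edgeR and 0 had an unadjusted p below 0.05, while 3567 and 5416 of all genes were called. For hTDP-43 WT that fit kept only MN-TRAP replicates 1 and 2, and replicate 1 has 472447 counts. By contrast, all 7 motor neuron genes listed were higher in MN-TRAP in each genotype, with medians of 3.61, 3.16 and 3.29, and all 9 oligodendrocyte genes were lower.

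The count of other genes that differed between genotypes in MN-TRAP changed when the mean log2 CPM of the 10 genes entered the model as a covariate. Against Chat bacTRAP at 14 weeks it went from 1953 to 965 genes, and against hTDP-43 WT from 1009 to 359. At 9 weeks it went from 102 to 0 (1897 with an unadjusted p below 0.05) and from 403 to 270. In spinal cord it went from 4 to 4, 5 to 3, 7 to 7 and 4 to 4. The covariate is itself lower in hTDP-43 A315T than in controls and moves with mitochondrially encoded and oligodendrocyte RNA in some libraries, and the parts of muscle RNA, of those and of genotype cannot be told apart by this fit.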

How the data were processed

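Read counts per gene of 56 libraries and the same values divided by 1 size factor per library (a normalized signal) were deposited by the authors, who aligned reads to mm10 with STAR, counted with featureCounts and normalized with DESeq2, per the labels and methods. Default settings are given for both, which count without strand and leave out reads shared by overlapping genes. Whole-number counts were tested with edgeR 4.0.16 (R 4.3.3): filterByExpr by group, TMM, quasi-likelihood tests in 1 fit of 12 groups, Benjamini-Hochberg adjustment over 18838 genes, calls at adjusted p below 0.05 and at least 2-fold change. All 10 genes passed the filter. CPM used the library total. Groups came from the sample titles. The fit was tested on simulated data.

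Gene lists, comparisons and named genes were chosen with earlier results of these data known. Named were the 10 genes, the 10 other genes closest to their mean log2 CPM in each fraction (pseudocount 0.5), each list's counts and leading genes, and the paralogs. Cardiac, smooth muscle, blood, bone, meningeal, Schwann, sensory neuron, keratinocyte, astrocyte, microglia and endothelial lists were also counted; against Chat bacTRAP in 14-week MN-TRAP their genes called lower were 1 of 6, 1 of 7, 0 of 5 red blood cell and 0 of 7 neutrophil, 2 of 7, 0 of 7, 2 of 5, 0 of 7, 0 of 4, 3 of 7, 2 of 6 and 1 of 5. Developmental muscle, endplate, myogenic, fat and paralog lists gave 0 of 3, 1 of 3, 2 of 3, 4 of 7 and 2 of 23. Alternatives were DESeq2 1.42.0, median-ratio factors, no filter, 1 fraction alone, a replicate block, omitted libraries and a covariate. Motif counts and promoters used RefSeq windows (GRCm38.p6), and gene positions and overlaps GENCODE M21 (GRCm38).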

Additional observations from a re-analysis of the deposited data

Results flagged for a closer look

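In 4 of the 11 groups tested, 1 library stood far from the others by Dixon's test at the 95% level. The test used the summed normalized counts of the 10 muscle genes, not their logarithms. Its chance rate of about 5% of groups holds for normally distributed values. These sums spread widely within groups, and all 4 flagged libraries stood at the high end. The flags, and those of single genes, are therefore a description, and no excess over chance is read from them. Chat bacTRAP 14 weeks spinal cord replicate 2 stood at 36841, with the other 4 libraries between 515 and 2532, and each of the 10 genes stood apart there. Chat bacTRAP 14 weeks MN-TRAP replicate 1 stood at 29528, with the others between 576 and 3268, and 8 of the genes stood apart. Chat bacTRAP 9 weeks MN-TRAP replicate 2 stood at 11161, with the others between 262 and 1084, and 9 genes stood apart. The hTDP-43 WT 9 weeks spinal cord replicate 6 stood at 25688.5, with the others between 1366 and 6554, and 9 genes stood apart. No hTDP-43 A315T library stood apart in the sum.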

How the results depend on the processing

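Of 122 recomputed medians of the 10 genes, 118 stayed below 0. Where single-gene changes were tallied, they kept direction and side of the threshold in 821 cases, passed it in 16, lost it in 41 and reversed in 12. The tally leaves out MN-TRAP against hTDP-43 WT and both spinal cord comparisons at 9 weeks, and MN-TRAP minus spinal cord in both controls. At 9 weeks, genes below 0 fell from 9 to 1 without hTDP-43 WT MN-TRAP replicate 2. Without hTDP-43 WT spinal cord replicate 6 they fell from 10 to 5, and without Chat bacTRAP spinal cord replicate 6 they stayed at 9. The cause was not tested for any of these. The pooled SD of the members' mean log2 CPM between libraries of a group, 2.18, limits what these group sizes can show, and hTDP-43 WT 9 weeks MN-TRAP replicate 1 has 472447 counts. For hTDP-43 A315T against Chat bacTRAP at 14 weeks in MN-TRAP, members called were 3 with no filter and 0 with libraries of the same fraction alone, and genes called were 0 with the same fraction alone and 965 with the covariate. Against hTDP-43 WT, members called were 6 with DESeq2 and 3 without the 3 control libraries with Lamr1-ps1 reads, and genes called were 2015 without those libraries, 0 with the same fraction alone and 359 with the covariate. At 9 weeks in MN-TRAP, genes called against Chat bacTRAP were 320 with DESeq2, 17 with no filter, 0 with the same fraction alone, 771 without the 3 libraries and 0 with the covariate, and against hTDP-43 WT 746 with DESeq2, 0 with the same fraction alone and 2938 without the 3 libraries. Those 2938 rest on hTDP-43 WT replicates 1 and 2, and replicate 1 has 472447 counts. In spinal cord, the same fraction alone gave 30 and 40 genes at 14 weeks and 36 and 35 at 9 weeks, against Chat bacTRAP and hTDP-43 WT; at 14 weeks 7 were called against Chat bacTRAP without the 3 libraries, and against hTDP-43 WT 9 with DESeq2 and 3 with the covariate. For MN-TRAP minus spinal cord, DESeq2 called 2 members for hTDP-43 A315T mice and 2 for hTDP-43 WT mice.

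Shared animals are not known from the labels, and the replicate numbers were not taken to pair the libraries: in no comparison did every same-numbered pair correlate above 0.1, although 4 of 5 did between MN-TRAP and spinal cord of hTDP-43 A315T at 9 weeks (r from -0.24 to 0.22) and 3 of 4 between hTDP-43 A315T and hTDP-43 WT in 14-week MN-TRAP (-0.05 to 0.15). With the replicate number as a block, 1 member was called against hTDP-43 WT at 14 weeks in MN-TRAP, 2 members in MN-TRAP minus spinal cord of hTDP-43 A315T, and 0 and 129 genes against Chat bacTRAP and hTDP-43 WT at 9 weeks in MN-TRAP, 3 genes against hTDP-43 WT at 14 weeks in spinal cord, and the median in spinal cord at 9 weeks against hTDP-43 WT was 0.32.

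Leaving out each library in turn, genes called against Chat bacTRAP ranged from 1082 to 3282 (MN-TRAP, 14 weeks), 0 to 565 (MN-TRAP, 9 weeks), 3 to 3 (spinal cord, 14 weeks) and 5 to 7 (spinal cord, 9 weeks), and against hTDP-43 WT from 426 to 1783, 7 to 2849, 2 to 5 and 2 to 5. Medians of the 10 genes ranged, in the same order, from -5.16 to -2.45, -2.46 to 0.36, -3.36 to -0.18 and -1.47 to -0.26, and from -3.90 to -2.86, -2.10 to 1.05, -3.59 to -2.61 and -1.38 to 0.04. Members called ranged from 0 to 8 against Chat bacTRAP and 0 to 2 against hTDP-43 WT at 14 weeks in MN-TRAP, from 0 to 1 for MN-TRAP minus spinal cord for hTDP-43 A315T and for Chat bacTRAP mice, and stayed at 0 elsewhere. Genes called for MN-TRAP minus spinal cord ranged from 5910 to 6180 in hTDP-43 A315T, 3295 to 5260 in Chat bacTRAP and 3072 to 5251 in hTDP-43 WT. In the comparisons tallied for single genes, the log2 changes that reversed had these ranges, the upper end being that without the library named. Against Chat bacTRAP, MN-TRAP, 14 weeks, without Chat bacTRAP replicate 1: Tnnc2 -8.08 to 4.57. Against hTDP-43 WT, MN-TRAP, 14 weeks, without hTDP-43 WT replicate 4: Tnnc2 -5.53 to 1.44. Against Chat bacTRAP, MN-TRAP, 9 weeks, without Chat bacTRAP replicate 2: Mylpf -2.28 to 0.51, Acta1 -2.29 to 0.53, Ckm -2.33 to 0.49, Tnnt3 -2.99 to 0.34, Actn3 -1.99 to 0.38, Atp2a1 -2.84 to 0.50. Against Chat bacTRAP, spinal cord, 14 weeks, without Chat bacTRAP replicate 2: Myh4 -3.91 to 0.27, Ckm -2.73 to 0.32, Tnnc2 -3.55 to 0.88, Actn3 -1.99 to 0.13.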
